A study of Mus musculus with 24 samples.

Results

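The secretoglobins measured here were the 34 protein-coding genes whose GENCODE mouse symbol starts with Scgb, taken from 63862 gene identifiers listed per library. Another 35 Scgb entries are annotated as pseudogenes and were left out. The libraries came from C57BL/6 mice. They comprised adult lacrimal gland (LG) and embryonic LG at E17.5 and E19.5 (E, days of embryonic development), with 3 libraries each. Lacrimal gland stem cells (LGSCs) at passage 2 were sampled after 5 days (2 libraries) and after 7, 10 and 14 days of culture (3 libraries each), and LGSCs at passage 10 were sampled once, at day 7. LGSCs are spheres grown from enzymatically dissociated adult LG in Matrigel and a serum-free medium with EGF, FGF10, Wnt3A and Y-27632. The labels give no sex for any sample and no age for the adult tissue. They do not say that replicates were separate animals or cultures, so the p-values below measure only the spread between these libraries. Sex-linked transcripts showed that some replicates differed in source. Xist was at 70.4 to 104 FPKM in replicates 2 and 3 of the passage 2 LGSCs, where 4 Y-linked genes were listed at 0, and at 0.0252 FPKM or lower in replicate 1 of each day, where the Y-linked genes were above 0. Adult replicate 3 differed from adult replicates 1 and 2 in the same way, and each embryonic library held both Xist and the Y-linked genes. The part of sex in the differences below was not tested. The 20 libraries of tissue and passage 2 held 6434281 to 9257025 reads each, as recovered from the deposited values.

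Secretoglobins are small secreted proteins that form dimers held together by disulfide bonds. In the mouse, the Scgb1b and Scgb2b genes encode the alpha and the beta or gamma subunits of androgen-binding proteins, which pair with each other and are released into tears and saliva. The genes lie as head-to-head neighbours in a cluster that has multiplied in rodents, so many members are close copies. Scgb1a1, Scgb3a1 and Scgb3a2 are better known as secretory proteins of the airway.

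The cluster on chromosome 7 held 29 of the 34 members, 15 Scgb1b and 14 Scgb2b genes, between positions 31290508 and 34100837 (GRCm38), a span of 2.81 Mb. Scgb1c1 lies further along chromosome 7 (140845547 to 140846769), Scgb3a1 on chromosome 11 (49663610 to 49665118), and Scgb1a1 (9083636 to 9087958) and Scgb2a2 (9847562 to 9852808) on chromosome 19. The remaining member is Scgb3a2. The members with the highest levels were Scgb2b2 (ENSMUSG00000036521, 31290508 to 31304977, plus strand), Scgb1b3 (ENSMUSG00000095257, 31375592 to 31376916, plus strand) and Scgb1b7 (ENSMUSG00000078759, 31712665 to 31713978, plus strand). Scgb2b7 (ENSMUSG00000094053, 31703779 to 31705757) and Scgb2b24 (ENSMUSG00000046438, 33737190 to 33739312) are on the minus strand of the same cluster.

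The alpha subunit genes Scgb1b3 and Scgb1b7 were near-identical, with 96.8% of protein residues and 96.1% of coding bases in common. The beta or gamma subunit genes were more distant. Scgb2b2 shared 53.5% of protein residues with Scgb2b7 and 49.1% with Scgb2b24. Their first 120 coding bases (GENCODE M21 transcripts) are shown because they tell the beta or gamma subunit genes apart. Over these bases 27 positions (capitals) were not the same in all of Scgb2b2, Scgb2b7 and Scgb2b24, with the opening bases alike.
Scgb2b2: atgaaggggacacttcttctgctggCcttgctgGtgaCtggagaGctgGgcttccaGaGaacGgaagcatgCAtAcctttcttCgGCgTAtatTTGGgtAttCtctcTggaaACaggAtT
Scgb2b7: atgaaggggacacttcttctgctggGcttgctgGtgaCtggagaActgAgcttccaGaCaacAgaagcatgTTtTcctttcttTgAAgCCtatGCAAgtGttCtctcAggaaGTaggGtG
Scgb2b24: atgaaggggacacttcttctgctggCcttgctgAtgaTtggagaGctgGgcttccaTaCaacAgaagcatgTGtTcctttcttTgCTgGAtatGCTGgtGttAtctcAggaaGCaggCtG

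Upstream sequences were printed for the same Scgb2b genes because these were measured at far different levels in the adult gland. The 250 bases before the RefSeq start (GRCm38.p6) are written 5′ to 3′ on the strand of the gene. They are chr7:31302519-31302768 (plus strand) for Scgb2b2, chr7:31705755-31706004 (minus strand) for Scgb2b7 and chr7:33739296-33739545 (minus strand) for Scgb2b24. The RefSeq start of Scgb2b2 lies inside the longer GENCODE gene. Capitals mark TGTTCT or its reverse complement AGAACA, a 6-base arm of the palindrome that androgen and glucocorticoid receptors bind.
Scgb2b2 upstream: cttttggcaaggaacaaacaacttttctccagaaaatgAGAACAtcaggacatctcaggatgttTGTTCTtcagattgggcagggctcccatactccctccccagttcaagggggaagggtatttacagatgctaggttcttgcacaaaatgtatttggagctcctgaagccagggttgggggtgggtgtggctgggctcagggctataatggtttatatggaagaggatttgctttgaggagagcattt
Scgb2b7 upstream: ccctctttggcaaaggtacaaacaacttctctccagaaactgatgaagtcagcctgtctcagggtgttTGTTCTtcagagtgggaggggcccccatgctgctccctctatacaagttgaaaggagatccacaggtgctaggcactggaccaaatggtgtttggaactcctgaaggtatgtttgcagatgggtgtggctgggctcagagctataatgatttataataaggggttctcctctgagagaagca
Scgb2b24 upstream: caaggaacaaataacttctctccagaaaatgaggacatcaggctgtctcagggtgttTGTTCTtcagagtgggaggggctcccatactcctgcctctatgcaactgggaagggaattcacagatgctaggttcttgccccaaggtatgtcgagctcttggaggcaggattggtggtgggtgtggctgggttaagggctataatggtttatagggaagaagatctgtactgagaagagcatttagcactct

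Counting the base before the start as -1, such an arm began at -212 and -186 in Scgb2b2, at -182 in Scgb2b7 and at -193 in Scgb2b24. RefSeq promoters of 250 bases before to 50 bases after the start were matched for 25 of the 34 members. TGTTCT, on either strand, was present in 13 of these 25 (52%) and in 21.3% of 27025 mouse promoters. TATAAA, on either strand, was present in 15 of the 25 (60%) and in 15.7% of all promoters. The full palindrome, AGAACA and TGTTCT with 3 free bases between them, overlaps the shorter motif by construction and was in none of the 25 windows and in 0.0111% of all. These matches describe letters in the windows, and near-identical members have near-identical windows.

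The adult LG was dominated by 3 secretoglobins. Values are FPKM (fragments per kilobase of exon, scaled by a size per library), as deposited. Recovered reads were 2.67, 2.57 and 1.10 times that size in adult replicates 1, 2 and 3, and 0.832 to 1.13 times elsewhere. Summed FPKM of adult replicates 1 and 2 thus ran high against other libraries, and the choice of scaling enters differences from adult LG. As deposited, the median gene differed little from adult LG. The median difference in log2(FPKM + 1) was 0.05 at E17.5, 0.09 at E19.5, -0.03 at LGSC day 7 and -0.02 at day 14. FPKM values are per length of all annotated exons, which limits how genes can be set side by side. For Scgb2b27 this length is 1571 bases against 512 in the GENCODE transcript used for its sequence, and for Scgb2b7 938 against 520. Scgb2b2 was at 871600.3, 624616 and 75437 FPKM in adult replicates 1, 2 and 3, and ranked first or second of all genes in each. Scgb1b7 was at 274758, 249723 and 23588 FPKM, and Scgb1b3 at 295403, 234724 and 2374 FPKM. In FPKM, each of the 3 genes was thus far lower in replicate 3 than in replicates 1 and 2, most of all Scgb1b3.

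As a share of the summed FPKM of a library, the 34 members took 52.2%, 44.5% and 15.5% of adult replicates 1, 2 and 3 (mean 37.4% ± 19.3, SD, n = 3), of which the 3 leading genes took 52.0%, 44.3% and 15.4%. The share of recovered reads of the 34 members, which does not divide by gene length, was 28.3%, 22.3% and 5.07%. Scgb2b2 alone took 31.4%, 25.0% and 11.4% of library FPKM, Scgb1b7 took 9.90%, 9.98% and 3.57%, and Scgb1b3 took 10.6%, 9.38% and 0.360%. No other member exceeded 0.113% of any library (Scgb2a2, adult replicate 1).

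**Figure D1:**
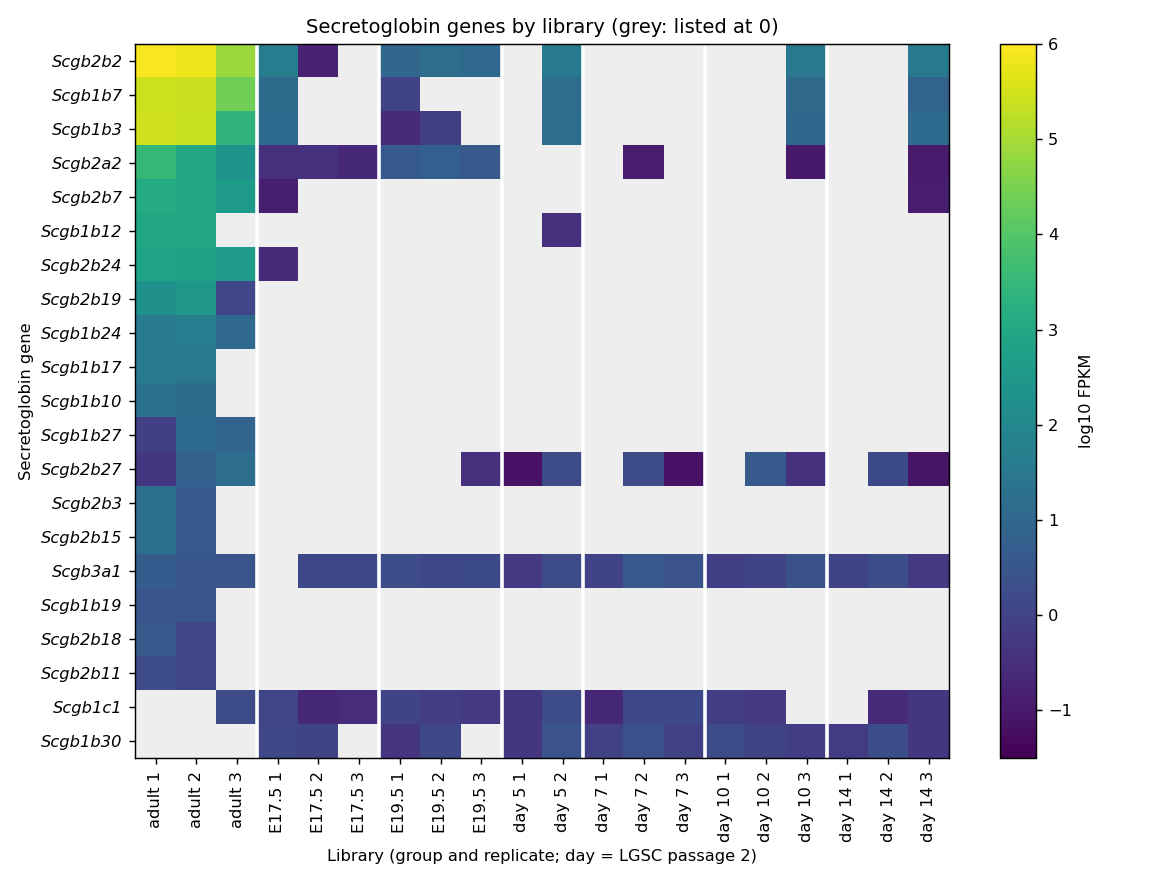
Level of each secretoglobin that averaged 0.5 FPKM or more in some group (rows) in each library (columns), as log10 FPKM, with grey where a gene is listed at 0. The adult columns hold most of the high values, and 1 library of E17.5 and 1 each of LGSC days 5, 10 and 14 hold the 3 leading genes above 7 FPKM.

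Below the leading genes, 5 members averaged 100 FPKM or more over the adult LG libraries. Scgb2a2, a relative of human mammaglobin on chromosome 19, was at 3144, 908 and 220.4 FPKM in replicates 1, 2 and 3. Scgb2b7 was at 1279, 961 and 387 FPKM. Scgb2b24 was at 712, 628 and 443 FPKM, the narrowest spread of these 5 genes. Scgb1b12 was at 909, 1054 and 0 FPKM, and Scgb2b19 at 184, 303 and 1.26 FPKM, so both were high in replicates 1 and 2 and at or near 0 in replicate 3.

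The lower members of the cluster split in the same way. Scgb1b17 was at 38.8, 32.5 and 0 FPKM, Scgb1b10 at 20.9, 14.4 and 0 FPKM, and Scgb1b19 at 2.98, 3.02 and 0 FPKM. Scgb2b3 was at 17.1, 4.65 and 0 FPKM, Scgb2b15 at 17.1, 4.35 and 0 FPKM, Scgb2b18 at 3.96, 1.21 and 0 FPKM, and Scgb2b11 at 1.59, 1.21 and 0 FPKM. All 7 of these were above 0 in replicates 1 and 2 and listed at 0 in replicate 3. By contrast, Scgb1b24 was at 37.1, 47.5 and 11.3 FPKM, Scgb1b27 at 0.825, 13.5 and 7.83 FPKM, and Scgb2b27 at 0.528, 6.22 and 15.1 FPKM, so these were above 0 in each adult library and Scgb2b27 was highest in replicate 3.

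The order of the members therefore changed between adult libraries, also when each value was taken as a share of its library. The mean share in replicates 1 and 2 was 49.1 times that in replicate 3 for Scgb2b19, 27.8 times for Scgb1b3, 2.78 times for Scgb1b7, 2.47 times for Scgb2b2 and 2.24 times for Scgb2a2. In the other direction, the share in replicate 3 was 1.06 times the mean of the other two for Scgb1b24, 1.39 times for Scgb2b7, 2.64 times for Scgb2b24, 3.09 times for Scgb3a1, 4.17 times for Scgb1b27 and 17.1 times for Scgb2b27. With 1 library on one side these ratios have no test.

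**Figure D2:**
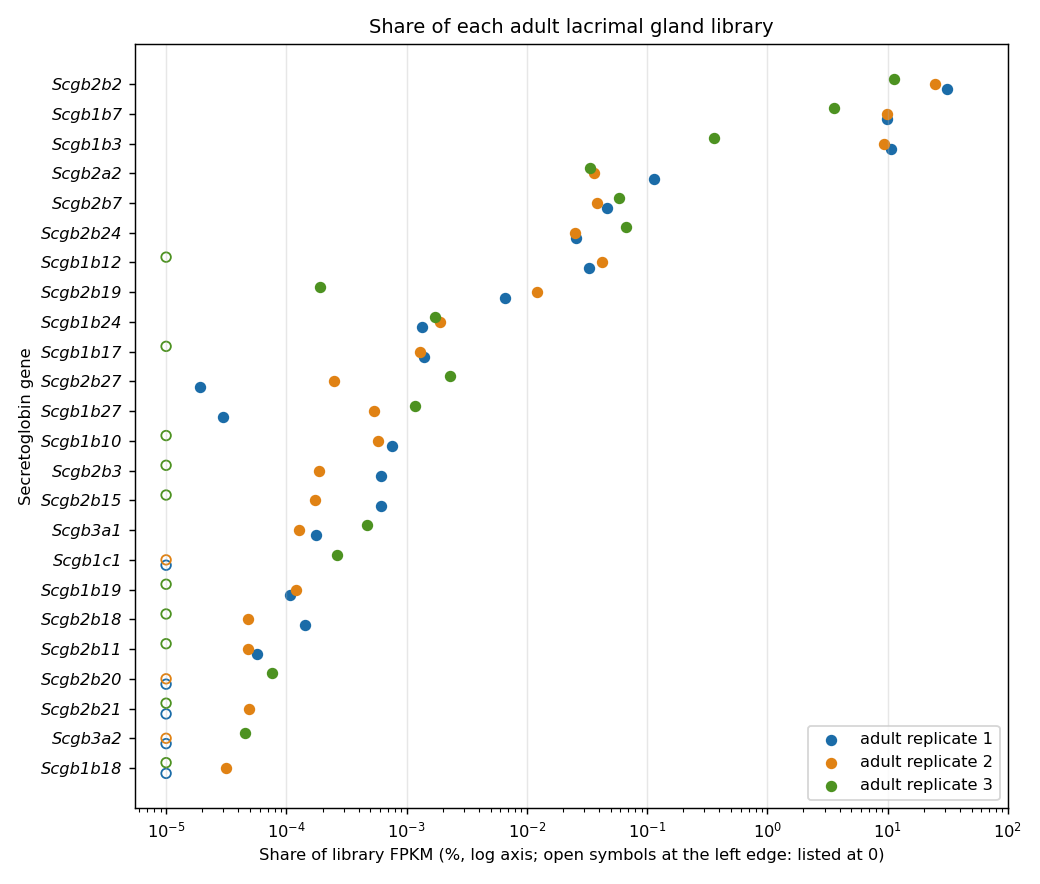
Share of library FPKM taken by each secretoglobin in each adult LG library (percent, log axis), with open symbols at the left edge for genes listed at 0. Scgb2b2 is first in each library, and Scgb1b3 falls from 10.6% and 9.38% to 0.360% in replicate 3.

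Other measurements separated adult replicate 3 from replicates 1 and 2. Its correlation with them on log2(FPKM + 1) across genes was 0.911 and 0.928, against 0.965 between replicates 1 and 2. The milk protein genes Csn1s2a, Csn2 and Wap and the mammary mucin gene Glycam1, named after their values were seen, were at 5722, 2292, 11684 and 4322 FPKM in replicate 3 and at 2.5 FPKM or lower in the other two. Xist was at 74.4 FPKM in replicate 3 and at 0.116 and 0.0704 FPKM in replicates 1 and 2. Replicate 2 stood apart in another way, as 4 of 7 salivary gland markers were above 0 in it and summed to 931 FPKM, led by Bpifa2 (597 FPKM) and Smr3a (275 FPKM), against 0.241 and 0.103 FPKM in replicates 1 and 3. Of the 9 acinar markers, 8 were above 0 in each adult library, led by Car6 (5463, 5639 and 15948 FPKM). Aqp5 was at 0.568 FPKM or lower and Bhlha15 was listed at 0. The part of other tissue in the secretoglobin values was not tested.

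The Scgb1b and Scgb2b genes that share a number lie next to each other on opposite strands, yet their levels in the adult LG were unequal in most of the 12 pairs. Scgb1b3 averaged 177500 FPKM and its neighbour Scgb2b3, 13.5 kb away, 7.26 FPKM. Scgb1b7 averaged 182690 FPKM and Scgb2b7, 6.9 kb away, 876 FPKM. Scgb2b2 overlaps Scgb1b2 on the other strand over 55 exon bases, and Scgb1b2 was listed at 0 in each library.

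The side that was higher differed from pair to pair. Scgb2b24 averaged 594 FPKM against 32.0 for Scgb1b24, and Scgb2b19 averaged 163 FPKM against 2.0 for Scgb1b19. Scgb1b12 averaged 654 FPKM while Scgb2b12 was listed at 0, and Scgb1b17 averaged 23.8 FPKM while Scgb2b17 was listed at 0. Pair 15 was the reverse, with Scgb2b15 at a mean of 7.16 FPKM and Scgb1b15 at 0. Scgb1b15 and Scgb1b17 encode the same protein, as do Scgb2b15 and Scgb2b17, so the higher side of pairs 15 and 17 is uncertain. The pair numbered 27 had nearly equal means, 7.29 FPKM for Scgb2b27 and 7.38 FPKM for Scgb1b27. Those means rest on annotated exon lengths of 1571 and 1005 bases, against 512 and 493 in the transcripts used for their sequences. No test was made, as the pairs share the 3 libraries.

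**Figure D3:**
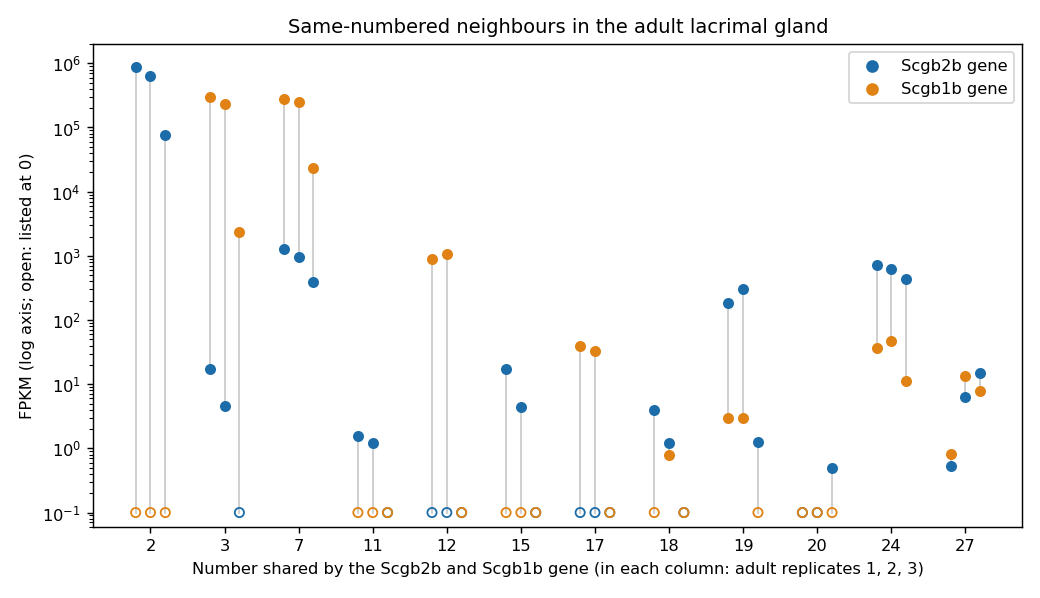
FPKM (log axis) of same-numbered Scgb2b and Scgb1b genes in the adult LG, with replicates 1, 2 and 3 in order within each column and open symbols for genes listed at 0. In pairs 3 and 7 the Scgb1b gene is the higher, in pairs 19 and 24 the Scgb2b gene.

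Near-identical copies limit how these values can be read. Members with at least 95% protein identity fell into 8 groups. These were Scgb1b3 with Scgb1b7, Scgb1b29 and Scgb1b20; Scgb2b7 with Scgb2b20; Scgb1b10 with Scgb1b15 and Scgb1b17; and Scgb2b11 with Scgb2b18. The others were Scgb1b11 with Scgb1b18, Scgb2b12 with Scgb2b19, Scgb1b12 with Scgb1b19, and Scgb2b15 with Scgb2b17. How the authors' counting treated a read that fits more than 1 gene is not given in the sources used here, so values within a group are uncertain.

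The overlap was uneven between the leading genes. Of the 150-base windows of a Scgb1b7 transcript, 49.3% were also found exactly in a transcript of Scgb1b29 or Scgb1b20. For Scgb1b3, Scgb2b2, Scgb2b24 and Scgb2a2 no window was shared with another gene, and for Scgb2b7 4.85% were. Every window of Scgb1b15, Scgb1b17, Scgb1b29, Scgb2b15 and Scgb2b17 was shared with another member. Of the 8 members listed at 0 in every library (Scgb1b2, Scgb1b11, Scgb1b15, Scgb1b20, Scgb1b29, Scgb2b12, Scgb2b17 and Scgb2b26), 6 belong to a near-identical group. An exact 0 in these files can also be a failed estimate, since Gapdh, Mki67 and Krt8 are listed at 0 in all 20 libraries of tissue and passage 2 LGSCs.

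In the embryonic LG the members together took at most 0.0219% of library FPKM, and most of the cluster was listed at 0. Scgb2b2 was at 45.2, 0.177 and 0 FPKM in the E17.5 replicates and at 9.17, 15.2 and 11.7 FPKM at E19.5. Scgb1b7 was at 14.4, 0 and 0 FPKM at E17.5 and at 1.09, 0 and 0 FPKM at E19.5, and Scgb1b3 at 12.9, 0 and 0 and at 0.273, 0.796 and 0 FPKM. Each embryonic library was below each adult library for these 3 genes.

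The comparison of embryonic with adult LG was made with limma on log2(FPKM + 1) over 18578 genes, with Benjamini-Hochberg adjustment, and a difference is on that scale, embryonic minus adult. At E17.5, 15 of the 19 members that passed the filter of a mean of 0.5 FPKM were lower and 0 higher, where 24.9% of all genes tested were lower, 29.1% higher and 54.0% either. At E19.5, 14 of the 19 were lower and 0 higher, where 23.9% of all were lower, 30.3% higher and 54.2% either. The E17.5 and adult values did not overlap for 11 of the 19 (59.5% of all genes), nor did the E19.5 and adult values for 11 of the 19 (58.8%). The median difference over the 19 was -3.46 at both ages and over all genes 0.05 and 0.09. Only 6 of the 19 would have passed without the adult libraries, so a lower value was built into most of these counts.

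Scgb2b2 was lower by 16.47 (SE 1.47, adjusted p = 3.4e-05) at E17.5 in limma, and at E19.5 the difference was -14.72 (SE 1.47, adjusted p = 7.2e-05). Scgb1b7 differed by -15.53 (SE 1.23, adjusted p = 1.9e-05) and -16.49 (SE 1.23, adjusted p = 1.6e-05), and Scgb1b3 by -14.48 (SE 1.8, adjusted p = 0.00022) and -15.34 (SE 1.8, adjusted p = 0.00018). In bulk tissue, fewer cells that express a gene and less RNA per cell cannot be told apart. Scgb2b24 was at 0.246 FPKM in E17.5 replicate 1 (1 read) and listed at 0 in the other 5 embryonic libraries (E17.5 difference -9.08, SE 0.19, adjusted p = 3.9e-08). Scgb2b7 was at 0.137 FPKM in E17.5 replicate 1 and at 0 in the other 5 (E17.5 difference -9.55, SE 0.38, adjusted p = 4.9e-07). Scgb2b24 and Scgb2b7 passed the filter only through adult LG, so a lower value in the embryo was fixed in advance for them.

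Another 11 members that averaged 0.5 FPKM or more over the adult LG libraries were listed at 0 in each embryonic and passage 2 LGSC library, except Scgb1b12 in 1 LGSC library. These were Scgb1b10, Scgb1b12, Scgb1b17, Scgb1b19, Scgb1b24, Scgb1b27, Scgb2b3, Scgb2b11, Scgb2b15, Scgb2b18 and Scgb2b19. In limma, Scgb1b24 (adjusted p = 3.6e-05 at E17.5, 4.2e-05 at E19.5), Scgb1b27 (0.0074 and 0.0076), Scgb2b19 (0.014 at both ages) and Scgb1b12 (0.037 at both ages) were among those called. Those tested passed the filter through adult LG alone, so a lower value in the embryo was fixed in advance. Scgb1b12, Scgb1b17, Scgb1b10, Scgb1b19 and Scgb2b27 lost their calls at both ages when some single library was left out. Without adult replicate 3, which lacks several of them, 18 members were called at E17.5 and 17 at E19.5. Without adult replicate 2, 10 and 9 were, and 9 also remained at E19.5 without E19.5 replicate 1 or 2. Calls over all genes moved the same way. In the main fit, 4634 genes were lower at E17.5 and 4440 at E19.5, of 18578. Without adult replicate 3, 5414 and 5215 of 18400 were lower, and without adult replicate 2, 3941 and 3770 of 18575.

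Between the embryonic ages, the clearest separation was that of Scgb2a2. It was at 0.348, 0.375 and 0.226 FPKM (2 to 4 recovered reads) at E17.5 and at 4.24, 5.63 and 3.91 FPKM (34 to 56 reads) at E19.5, with no overlap. The difference, E19.5 minus E17.5, was 2.08 (SE 0.77, limma adjusted p = 0.242), which did not pass the threshold in the fit with adult LG. It passed with those libraries left out of the fit (adjusted p = 0.0025), without adult replicate 3 (adjusted p = 0.023), and with each library scaled to the same summed FPKM (difference 2.67, adjusted p = 0.037). No other alternative called it. With adult LG left out, 1335 genes were higher and 809 lower of 17311. Without adult replicate 3, 1064 were higher and 672 lower of 18400, against 207 and 116 of 18578 in the main fit. In the fit without adult LG, Scgb2a2 passed the filter only through E19.5 (mean 0.316 FPKM at E17.5), which fixed the direction. Against adult LG, Scgb2a2 was lower by 9.35 at E17.5 (SE 0.77, adjusted p = 2.4e-05), and the E19.5 difference was -7.27 (SE 0.77, adjusted p = 0.00011).

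Of the 19 members, 0 were called between E19.5 and E17.5 by limma, 1 had an unadjusted p under 0.05 (Scgb2a2) and 1 had no overlap, where 1.74% of all genes were called (1.11% higher, 0.624% lower) and 35.1% had no overlap. limma-voom on recovered reads could test 11 of the members and called 0. Scgb2b2 was detected in each E19.5 library, from 47 to 80 reads, but its E17.5 values spanned 0 to 45.2 FPKM (difference 1.76, SE 1.47, adjusted p = 0.666). Without E17.5 replicate 1 the difference was 3.56 (adjusted p = 0.231).

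Among Scgb2b2, Scgb1b7 and Scgb1b3, Scgb2b2 made up 60.5%, 56.3% and 74.4% of the summed FPKM in the adult replicates. In the E19.5 replicates it made up 87.0%, 95% and 100%, with 4 reads or fewer for either Scgb1b gene in each library. In E17.5 replicate 1 it made up 62.3%, with 47 reads of Scgb1b7 and 42 of Scgb1b3. E17.5 replicate 1 was thus nearer to the proportions of adult replicates 1 and 2 than the E19.5 libraries were. This did not hold for adult replicate 3, where Scgb1b3 made up 2.34%. Scgb1b3 made up 17.8% in E17.5 replicate 1 and 2.59% in E19.5 replicate 1.

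Other secreted products of exocrine glands were compared as a background list. Of 14 exocrine gland-secreting peptide (Esp) genes, pheromones of tears in mice, 9 passed the filter, and 9 were lower at E17.5 and 9 at E19.5 than in the adult, with median differences of -7.27 and -6.55, where 24.9% and 23.9% of all genes were lower. Of the 9, 5 were listed at 0 in each embryonic library and passed the filter through adult LG alone, so the direction was fixed for them. Between the embryonic ages, 3 of the 9 rose, where 1.11% of all genes were called higher. They were Esp6 (difference 3.69, limma adjusted p = 0.047), Esp18 (4.98, adjusted p = 0.0071) and Esp4 (2.27, adjusted p = 0.0047). Esp6 was at 18.8, 14.8 and 43.3 FPKM at E17.5 and at 265, 310 and 357 FPKM at E19.5. Of 9 acinar genes, 7 were tested, of which 7 were lower at E17.5 and 6 at E19.5, and of 2 lipocalins tested 1 was lower at each age. The 4 leukocyte genes tested were lower at both ages. Without adult LG, 3 of these acinar, 0 of the lipocalin and 2 of the leukocyte genes would have passed the filter. Of 3 salivary genes tested, 0 were called. The airway secretory markers summed to 0.0211 to 0.217 FPKM in adult LG and to 1.53 to 4.02 FPKM at E19.5, where the 1 gene tested was higher.

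In the passage 2 LGSCs, the 3 leading genes were listed at 0 in 8 of 11 libraries and were present in the other 3. The day 5 libraries had 0 and 40.0 FPKM of Scgb2b2 and the day 7 libraries none. Those of day 10 had 0, 0 and 32.2 FPKM, and those of day 14 had 0, 0 and 38.4 FPKM. Scgb1b7 was above 0 in the same 3 libraries, at 15.5, 12.7 and 7.75 FPKM, and so was Scgb1b3, at 16.2, 10.8 and 13.2 FPKM. The values came from 159, 163 and 187 recovered reads of Scgb2b2. These libraries were day 5 replicate 2, day 10 replicate 3 and day 14 replicate 3, and libraries of the same days lacked all 3 genes.

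In these 3 libraries Scgb2b2 made up 55.8%, 57.8% and 64.7% of the 3 genes, close to adult replicates 1 and 2. Other genes abundant in adult LG were present in the same libraries. Mucl2, a mucin-like gene named after its values were seen, was at 679557, 807362 and 171251 FPKM in the adult replicates. It was at 58.3, 45.7 and 40.4 FPKM in the 3 LGSC libraries, at 46.0 FPKM in E17.5 replicate 1 and at 1.09 FPKM or lower in the other 13 libraries outside the adult gland.

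Of the 20 genes with most reads in adult LG, a set also chosen after values were seen, 18, 19 and 19 were above 0 in the 3 LGSC libraries and 20 in E17.5 replicate 1. In the other 8 LGSC libraries 6 to 9 were, and in the other embryonic libraries 11 to 15. Of 9 such genes listed at 0 in all 8 other LGSC libraries, 7 were above 0 in all 3. They were Scgb2b2, Scgb1b7, Scgb1b3, Gm5938, Csn1s2a, Csn2 and Gm12888. Whether this RNA was made by cells in those samples or came from adult LG libraries was not tested.

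**Figure D4:**
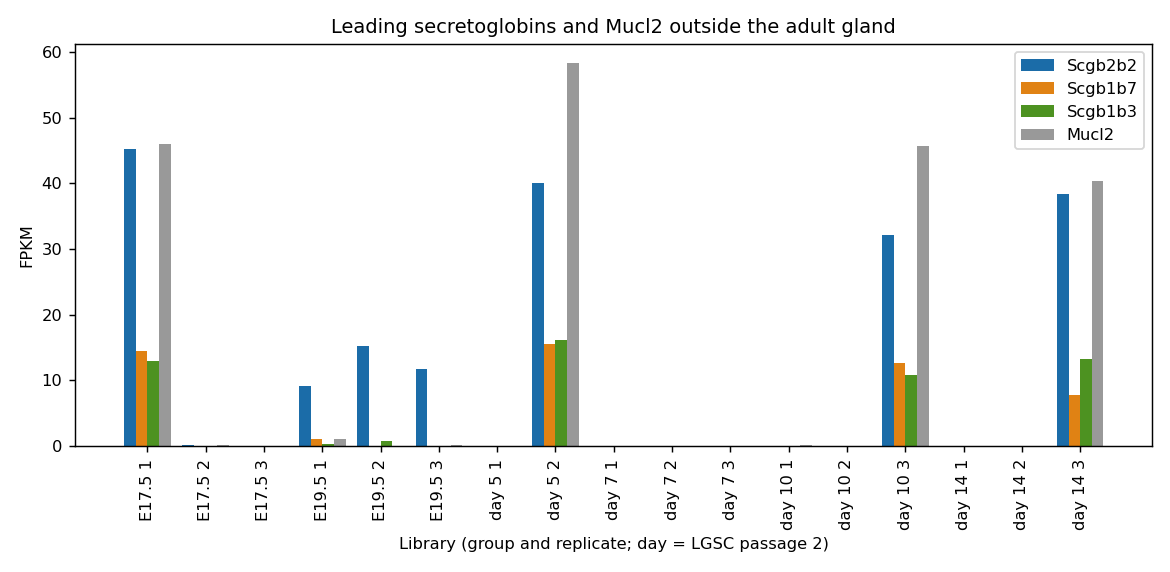
FPKM of Scgb2b2, Scgb1b7, Scgb1b3 and Mucl2 in each embryonic and passage 2 LGSC library (adult not drawn). The 4 genes are high together in E17.5 replicate 1, day 5 replicate 2, day 10 replicate 3 and day 14 replicate 3, and the E19.5 libraries hold Scgb2b2 at 9.17 to 15.2 FPKM with the others near 0.

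Against adult LG, over 17663 genes, limma called 12 of the 20 members tested lower and 1 higher at day 7, where 23.2% of all genes were lower, 16.5% higher and 39.7% either. At day 14, 11 of the 20 were lower and 1 higher, where 21.2% of all were lower, 15.2% higher and 36.4% either. Day 7 and adult values did not overlap for 10 of the 20 (51.9% of all genes), and day 14 and adult values for 11 of the 20 (47.4%). The median difference over the 20 was -3.13 at both days and over all genes -0.03 and -0.02. Again only 7 of the 20 would have passed the filter without the adult libraries. The 1 member called higher, Scgb1b30, passed the filter only through the LGSC libraries, so its direction was also fixed in advance.

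With the replicate number as a block in limma, 13 members were lower at day 7, adding Scgb2b27 (adjusted p = 0.049). That block ties same-numbered adult and LGSC libraries. The labels do not pair these, and their deviations from group means correlated at only -0.034 to 0.073, so the added calls rest on an assumed pairing. At day 14, 14 were lower with the block, adding Scgb1b17 (adjusted p = 0.048), Scgb2b27 (0.049) and Scgb1b10 (0.0498). Leaving out adult replicate 3 gave 17 members called in either direction at each day, against 13 and 12 with it, and leaving out day 7 replicate 2 gave 8 at day 7. Leaving out adult replicate 2 or day 14 replicate 1 gave 8 at day 14. Calls over all genes moved the same way. In the main fit, 2909 genes were higher and 4104 lower at day 7, and 2690 and 3747 at day 14, of 17663. Without adult replicate 3 these were 3316 and 4599 at day 7 and 3193 and 4521 at day 14, of 17303. Without day 7 replicate 2 they were 2275 and 3360 of 17679 at day 7.

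At day 14 Scgb2b2 differed by -16.63 (SE 1.43, limma adjusted p = 6.4e-05), Scgb1b7 by -15.80 (SE 1.07, adjusted p = 1.9e-05) and Scgb1b3 by -14.47 (SE 1.78, adjusted p = 0.00043), each with the 1 library above 0 included. At day 7, where these genes were listed at 0, their adjusted p was 3.3e-05, 1.3e-05 and 0.00024. Scgb2a2 was at 0.116 FPKM in 1 day 7 library, 0.104 in 1 day 10 library and 0.109 in 1 day 14 library, 1 read each, and at 0 in the other 8. It was lower than in adult LG at day 14 (difference -9.70, SE 0.77, adjusted p = 4.1e-05), but it passed the filter of this fit only through adult LG, which fixed the direction. Scgb2b7 had 1 read at day 14, Scgb1b12 had 1 read at day 5 (0.354 FPKM), and Scgb2b24 and Scgb1b24 had none in any passage 2 LGSC library.

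Across the 4 comparisons of embryonic LG or LGSCs with adult LG, Scgb2b2, Scgb1b7 and Scgb1b3 were lower under every alternative that gave a value for them, and they would have passed the filter without the adult libraries in both fits. In the tissue fit Scgb1b7 and Scgb1b3 would have done so only through E17.5 replicate 1, at 14.4 and 12.9 FPKM. In the LGSC fit Scgb2b2, Scgb1b7 and Scgb1b3 would have done so only through day 14 replicate 3. Scgb2a2, Scgb2b7, Scgb2b24, Scgb1b24 and Scgb1b27 also kept their calls, but Scgb2a2 in the LGSC fit and the other 4 in both fits were tested only because of their adult values, which had to make them lower. The comparisons share the adult libraries, so they are not independent of each other. When each library was scaled to the same summed FPKM, the median difference of all genes rose to 1.23, 1.06, 1.14 and 1.22 at E17.5, E19.5, day 7 and day 14. The genes called higher and lower became 14660 and 1093 at E17.5 (from 5405 and 4634), 12897 and 992 at E19.5 (from 5637 and 4440), 11742 and 1381 at day 7 (from 2909 and 4104) and 12473 and 1276 at day 14 (from 2690 and 3747). Under that scaling, in which 18 members passed the filter, 15, 14, 13 and 13 were lower.

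A few members were measured at low levels that did not follow the adult gland. Scgb1b30, the member nearest the far end of the cluster, was listed at 0 in the 3 adult libraries. The day 7 libraries had 0.880, 2.08 and 0.910 FPKM of it and the day 14 libraries 0.686, 2.06 and 0.490 FPKM, so each library of these days was above each adult library (limma adjusted p = 0.016 and 0.034). Scgb1b30 passed the filter of this fit only through the LGSC libraries, so a higher value than in adult LG was fixed in advance. Its day 5 values were 0.479 and 2.70 FPKM, and its day 10 values 1.61, 1.06 and 0.706 FPKM. In the embryo it was at 1.31, 1.06 and 0 FPKM at E17.5 and at 0.466, 1.36 and 0 FPKM at E19.5. These levels rested on 2 to 9 recovered reads per library where it was above 0, and its calls were lost when some single library was left out.

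Scgb3a1, a secretoglobin of airway epithelium, was at 4.85, 3.16 and 3.07 FPKM in adult LG (3.70 ± 1.00, SD, n = 3). It was at 0, 1.39 and 1.46 FPKM at E17.5 and at 1.91, 1.30 and 1.49 FPKM at E19.5. The LGSC libraries had 0.590 and 1.73 FPKM (day 5), 1.08, 3.85 and 2.61 FPKM (day 7), 0.756, 1.09 and 2.32 FPKM (day 10), and 1.13, 1.88 and 0.604 FPKM (day 14). Its values in the embryo and at day 14 lay below the adult range, and those at day 7 overlapped it.

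The differences of Scgb3a1 from adult LG were -1.36 at E17.5 (SE 0.34, limma adjusted p = 0.0092), -0.86 at E19.5 (adjusted p = 0.061), -0.48 at day 7 (adjusted p = 0.302) and -1.11 at day 14 (SE 0.35, adjusted p = 0.035). With each library scaled to the same summed FPKM none of the 4 passed, and 3 changed sign, at -0.16 (adjusted p = 0.830), 0.55 (0.456), 1.24 (0.0599) and 0.44 (0.459) in the same order. The day 14 call was also lost with no filter on low values (adjusted p = 0.0633) and without adult replicate 1 or 2, day 7 replicate 3, or day 14 replicate 1 or 3 (adjusted p from 0.0537 to 0.116). Levels came from 3 to 18 recovered reads per library where it was above 0.

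Scgb1c1 was at 0, 0 and 1.73 FPKM in adult LG, at 1.13, 0.228 and 0.275 at E17.5 and at 1.01, 0.733 and 0.560 at E19.5. The LGSC libraries had 0.517 and 1.62 FPKM (day 5), 0.237, 1.41 and 1.47 FPKM (day 7), 0.745, 0.571 and 0 FPKM (day 10), and 0, 0.247 and 0.529 FPKM (day 14). It shares 85 exon bases with an antisense gene, C330022C24Rik, and no strand setting is given in the sources used here. Scgb2b27 was above 0 in 8 of 11 passage 2 LGSC libraries and was higher in replicate 2 at each day, with 1.60, 1.79, 4.13 and 1.502 FPKM at days 5, 7, 10 and 14 against 0.368 FPKM or lower in the others. In the embryo it was at 0.325 FPKM in 1 E19.5 library and at 0 in the other 5.

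The remaining members stayed near or at the level of single reads. Scgb1a1, the club cell protein of the airway, was listed at 0 in adult LG and reached 0.619 FPKM at day 5. Scgb3a2 reached 0.298 FPKM in adult replicate 3. Scgb1b18 (0.785 FPKM), Scgb2b21 (1.21 FPKM) and Scgb2b20 (0.501 FPKM) were each above 0 in 1 adult library.

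**Figure D5:**
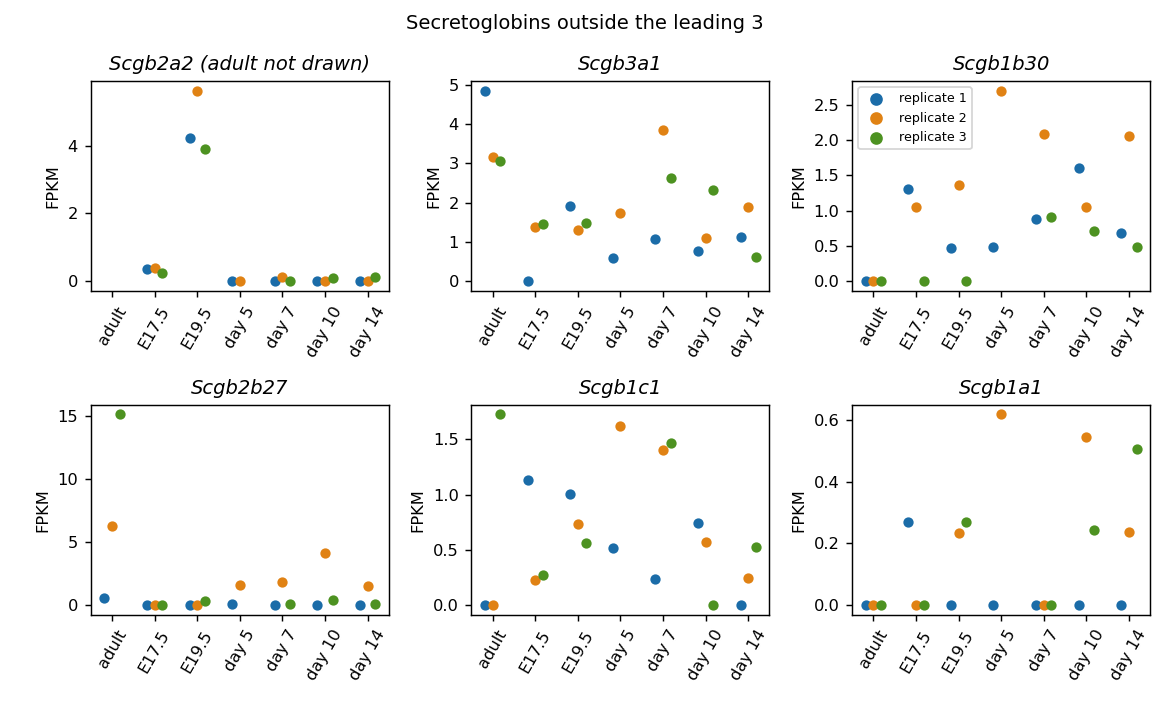
FPKM of secretoglobins outside the 3 leading genes, with 1 point per library and groups along the x axis (adult Scgb2a2 not drawn). Scgb2a2 is at 3.91 to 5.63 FPKM at E19.5 and at 0.375 FPKM or lower at E17.5 and in LGSCs, while Scgb1b30 is at 0 in the adult libraries.

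Within the cultures, the members showed no change over time that passed the test. Between day 14 and day 7, limma called 0 of the 7 members tested, 0 had an unadjusted p under 0.05, and limma-voom, which could test 1 of them, called 0. Over all genes 0 of 15744 were called (0%) and 1557 had an unadjusted p under 0.05. The values of the days overlapped for each of the 7, while 17.4% of all genes had no overlap. Over culture days 5 to 14, 0 of 7 members had a slope that passed, where 2.14% of 15584 genes did. Only Scgb1c1 had an unadjusted p under 0.05 (-0.09 per day on the log2 scale, adjusted p = 0.219). limma-voom could test 4 members for a slope and called 0. The median over the 7 was -0.05 between the days (0.01 over all genes) and -0.01 per day (0.00 over all genes).

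The share of library FPKM taken by the 34 members was 0.000456% and 0.0181% (day 5), then 0.000703%, 0.00253% and 0.00157% (day 7), 0.00102%, 0.00191% and 0.0182% (day 10), and 0.000541%, 0.00191% and 0.0188% (day 14). The 3 highest values are those of the libraries with the leading genes. Without these, the shares at days 7, 10 and 14 overlapped. In the single passage 10 library at day 7, sequenced to 25172949 recovered reads, the 3 leading genes were listed at 0 and the members took 0.000974%. Its most read members were Scgb3a1 (1.48 FPKM, 21 reads) and Scgb1b30 (1.28 FPKM, 15 reads), and it has no replicate.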

How the data were processed

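RNA was extracted with Trizol, poly-A mRNA was made into libraries and sequenced in pairs of 150-base reads. The submitters' processing notes name CASAVA 1.8, HISAT2 2.0.5, featureCounts 1.5.0-p3 and the build NCBIM37. The deposited values are FPKM per gene, made by the authors; the step from counts to FPKM and the handling of reads that fit several genes are not given in the sources used here. Exon lengths of GENCODE M21 (GRCm38) turned 92.6 to 93.6% of values up to 1000 reads into whole reads (within 0.01), so reads were recovered with these lengths, although the notes name another build. Of 63862 identifiers, 52636 are Ensembl genes and 11226 assembled loci, and 52403 are in GENCODE M21. The passage 10 library lists 52747 genes and entered no test. Of 24 samples, 21 were analysed here.

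The 34 members and the marker lists were chosen with earlier results of these data known. Every member above 0 is named with its range, and other genes are named from the lists or as stated. Tests used limma 3.58.1 in R 4.3.3 (eBayes with trend) on log2(FPKM + 1). Genes entered a fit where they averaged 0.5 FPKM or more over its libraries, p-values were adjusted by Benjamini-Hochberg, and calls were made under 0.05. Groups came from the labels. Tables were handled in pandas 2.3.3 and numpy 2.4.6 (Python 3.11.15), and figures drawn in matplotlib 3.10.9. Recovered reads per library set the precision, and low values rest on few reads. Alternatives were a pseudocount of 0.1, no filter or a mean of 5 FPKM, scaling to the same summed FPKM, limma-voom on recovered reads (mean of at least 10), a replicate block, near-identical members summed, other samples in the fit and each library left out.

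The fit was tested on simulated counts. A first simulation that included genes with few reads and wide spread missed a large part of the changed genes. The simulation, not the fit, was then changed to genes with more reads and less spread after that result was seen, where nearly all were recovered, so that test speaks for such genes only. False calls exceeded the nominal rate in several of the simulated fits.

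Replicate numbers were checked as pairs by the correlation of deviations from group means. Same-numbered LGSC libraries of days 5 to 14 correlated at 0.260 to 0.719 and differently numbered ones at -0.606 to 0.438, so the ranges overlapped. Same-numbered tissue libraries correlated at -0.077 to 0.066. Day 7 replicate 3 correlated at 0.417 with day 14 replicate 1 and at 0.263 with day 14 replicate 3. The correlations set LGSC replicate 2 apart but did not tell replicates 1 and 3 apart. Sex-linked transcripts separated LGSC replicate 1 from replicates 2 and 3. Any pairing by number comes from the data and not the labels.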

Additional observations from a re-analysis of the deposited data

Results flagged for a closer look

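Annotated Scgb pseudogenes lie outside the 34 members, and 2 of them had high values in the adult gland. The cut of 1000 FPKM used to pick them was set after their values were seen. Scgb2b28-ps was at 14139.5 and 9748.81 FPKM in adult LG replicates 1 and 2 and at 410 FPKM in replicate 3, above all members but the 3 leading genes in replicates 1 and 2. Scgb2b4-ps was at 1793.45 and 1719.01 FPKM in adult replicates 1 and 2 and at 3.47 FPKM in replicate 3. Scgb2b4-ps was also at 5.05, 4.58 and 5.25 FPKM at E19.5 and at 0.378, 0 and 0 FPKM at E17.5, while it was listed at 0 in each passage 2 LGSC library. Of the 35 pseudogenes, 19 were above 0 in some library. The share of their reads that belongs to members with like sequence was not tested.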

How the results depend on the processing

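Scgb2b2, Scgb1b7 and Scgb1b3 kept their lower calls against adult LG under each alternative that gave them a value. Of 1845 values for single members under an alternative, 1633 stayed on the same side of the threshold, 160 fell below it and 51 rose past it. The sign changed in 41, of which 40 passed the threshold in neither fit and 1 was the day 14 difference of Scgb3a1 (0.44). limma-voom, which could test 11 members, called 9 at E17.5, 9 at E19.5, 8 at day 7 and 8 at day 14. For E19.5 against E17.5, 1 member was called after scaling and 1 with those groups alone.

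Counts over all genes moved more. With a mean of at least 5 FPKM they were 3885 at E17.5, 3939 at E19.5, 2874 at day 7, 2617 at day 14 and 122 between the embryonic ages, and after scaling 15753 at E17.5, 13123 at day 7, 13749 at day 14, 172 between the embryonic ages and 185 for the slope. E19.5 against E17.5, 323 genes in the report's fit, gave 162 with a pseudocount of 0.1, 542 with limma-voom, 100 with the replicate block, 2144 with these groups alone and 511 with all 20 libraries. Day 14 against adult gave 4251 with limma-voom. limma-voom with the replicate block gave 116 genes between day 14 and day 7. The slope, 334 genes, gave 82 with no filter, 783 with the replicate block, 1352 with limma-voom and the block, 0 over days 7, 10 and 14 alone and, in an alternative chosen after seeing the data, 1 without the 3 libraries that held the leading genes. In limma on log2(FPKM + 1), the block changed no other member call than those given in the report. In limma-voom the block brought the members called to 11 at E17.5, 11 at E19.5, 10 at day 7 and 10 at day 14.

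Leaving out 1 library at a time gave 10 to 18 members at E17.5, 9 to 17 at E19.5, 8 to 17 at day 7, 8 to 17 at day 14 and 0 to 1 between the embryonic ages. Over all genes it gave 50 to 1736 between the embryonic ages (1736 without adult replicate 3, 50 without E17.5 replicate 1) and 11 to 384 for the slope (11 without day 5 replicate 1). With 1 adult library left out, the mean adult share of FPKM ran from 30 to 48.3%. The single adult libraries had 52.2%, 44.5% and 15.5%. By recovered reads the share was 0.00138% at E19.5 and 0.000393% at day 7. The causes were not tested. Depth limits values under about 1 FPKM, which rest on few reads.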
